A study of Mus musculus with 18 samples.

Results

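Non-coding and pseudogene transcripts made up 106 of the 2202 genes that the authors listed as differing between mice lacking Beclin 2 and wild-type mice, or between lymphoma and lymph node, over 5 comparisons. They were taken as every listed gene whose type in the tables was other than protein-coding or an immunoglobulin or T cell receptor segment, leaving out names that begin with Igh, Igk or Igl and the transcripts Gas5, Rpl3-ps1, 2610507I01Rik and Gm4955. Of the 106, 41 were typed as pseudogenes, 34 as long intergenic non-coding RNAs (lincRNAs), 16 as antisense RNAs, 12 as processed transcripts, 2 as polymorphic pseudogenes and 1 as sense intronic. The messenger RNA of 18 mouse samples in 9 groups of 2 was sequenced after selection with oligo(dT), and all mice were of strain C57BL/6. The groups used here were splenic B cells and splenic T cells of wild-type and Beclin 2 knockout mice at 8 weeks of age, wild-type and knockout lymph nodes, and lymphomas from knockout mice, all without stimulation. No age was given for the lymph nodes and lymphomas, so that age and group cannot be told apart there. Lymphomas came from knockout mice only, so lymphoma and genotype cannot be told apart in their comparison with wild-type nodes. Bone marrow derived macrophages of both genotypes, stimulated with lipopolysaccharide at 100 ng/ml for 3 hours, were not analysed here.

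A processed pseudogene is a copy of a spliced messenger RNA that was reverse transcribed and inserted elsewhere in the genome, usually without introns. An unprocessed pseudogene arose by duplication of a gene together with its introns. Such copies matter in RNA sequencing because short reads from a copy and from its parent can be nearly identical. Many lincRNAs and antisense RNAs are spliced and polyadenylated like messenger RNAs, others have a single exon, and they have no known long reading frame. Some of them are hosts of small RNAs, as the Snhg genes are of small nucleolar RNAs, and others lie beside or across a coding gene. Beclin 2 is a mammalian relative of the autophagy protein Beclin 1 that takes part in autophagy and in the lysosomal degradation of G protein-coupled receptors.

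Each table gave 1 mean normalised read count per group. The whole reads of both libraries behind a mean were recovered from its digits where they could be solved. Size factors of the libraries, their depths relative to each other within a comparison, ran from 0.842 to 1.19. The libraries carry no sample name, and where a pair of values is given, the library with the smaller size factor comes first. The labels do not state whether paired libraries derive from different animals, so the p-values may measure technical spread. Becn2, the deleted gene, was listed in none of the 5 tables, so these tables hold no check of the genotype labels. In tissue or sorted cells, fewer cells of a type and less RNA per cell cannot be told apart. All 139 solved values of the transcripts described here came from libraries that did not overlap between groups, as was so for every solved gene of the tables, which list only genes selected for a difference.

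Sequences show how close the copies are to the genes they came from. The first 3 pairs below are single-exon copies that were higher in knockout or lymphoma libraries while the parent gene was lower or not listed, and the fourth is a copy that was higher together with its parent. Each line is 90 bases of the coding stretch of the parent and the aligned stretch of the copy, from GENCODE M21 transcripts on GRCm38, chosen as the first such stretch with the most differences, and capitals mark the bases that differ.
Gm13456: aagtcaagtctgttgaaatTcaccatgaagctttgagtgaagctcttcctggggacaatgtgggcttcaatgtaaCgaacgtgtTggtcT
Eef1a1: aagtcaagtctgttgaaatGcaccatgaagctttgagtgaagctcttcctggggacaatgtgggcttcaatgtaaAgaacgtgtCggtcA
Gm6166: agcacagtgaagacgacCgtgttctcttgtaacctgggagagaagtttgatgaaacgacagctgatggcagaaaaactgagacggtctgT
Fabp5: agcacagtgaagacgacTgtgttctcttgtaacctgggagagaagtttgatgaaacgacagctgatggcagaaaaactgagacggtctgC
Gm17709: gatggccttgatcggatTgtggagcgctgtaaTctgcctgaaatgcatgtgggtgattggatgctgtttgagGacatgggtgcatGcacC
Odc1: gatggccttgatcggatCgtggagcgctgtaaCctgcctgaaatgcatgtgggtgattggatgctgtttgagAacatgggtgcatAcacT
Gm4604: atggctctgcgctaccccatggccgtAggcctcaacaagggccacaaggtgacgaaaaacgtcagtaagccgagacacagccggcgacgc
Rpl36: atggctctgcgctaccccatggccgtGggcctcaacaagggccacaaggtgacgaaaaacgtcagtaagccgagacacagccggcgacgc

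The Gm13456 stretch lies at chr2:40556589-40556678 on the plus strand, and Gm13456 as a whole had 18 mismatches and 1 gap position to Eef1a1 in 1317 aligned positions (98.6% identity, gaps counted as differences). The Gm6166 stretch lies at chr9:57484134-57484223 on the plus strand, with 5 mismatches and 2 gap positions to Fabp5 over 409 aligned positions (98.3%). The Gm17709 stretch lies at chr8:121972943-121973032 on the minus strand, with 19 mismatches and 2 gap positions to Odc1 in 937 aligned positions (97.8%). The Gm4604 stretch lies at chr6:108140393-108140482 on the minus strand, with 3 mismatches to Rpl36 in 375 aligned positions (99.2%). How the authors' counting treated reads that match both copy and parent is not given in the sources used here, so counts of such pairs are uncertain. Among the 99 transcripts with a position in GENCODE M21, 17 had a coding relative of at least 95% identity over at least 50% of their length.

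Direction differed between comparisons. In B cells 31 of the transcripts were listed, 5 higher and 26 lower in the knockout. Of the 23957 genes tested there, 1.24% were listed, 0.493% as higher and 0.751% as lower. The share higher was 16.1%, against 39.6% among all 298 genes listed with values in that comparison, and the median log2 ratio was -1.34 against -0.92. T cells had 20 listed, 11 higher and 9 lower in the knockout, where 2.35% of 25015 genes tested were listed, 1.67% as higher and 0.676% as lower. The share higher was 55%, against 71.2% of all 587 listed genes, and the median log2 ratio was 1.18 against 1.14. The split changed with the threshold: it was 7 higher and 7 lower at an adjusted p under 0.01, and 7 higher and 8 lower among transcripts whose higher group averaged 50 or more. Knockout against wild-type lymph node gave 4, of which 3 were higher and 1 lower, where 0.475% of 22105 genes tested were listed, 0.181% as higher and 0.294% as lower. Lymphoma against knockout lymph node gave 8, with 4 in each direction, where 1.77% of 23565 genes tested were listed, 0.7% as higher and 1.07% as lower. The comparison of lymphoma with wild-type lymph node held 77, with 60 higher and 17 lower in lymphoma, where 7.38% of 22086 genes tested were listed, 3.34% as higher and 4.04% as lower. There 77.9% were higher, against 45.2% of all 1630 listed genes, and the median log2 ratio was 1.71 against -0.45. Comparisons that share a group of libraries are not independent: wild-type lymph node, knockout lymph node and lymphoma each entered 2 of the 5.

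**Figure D1:**
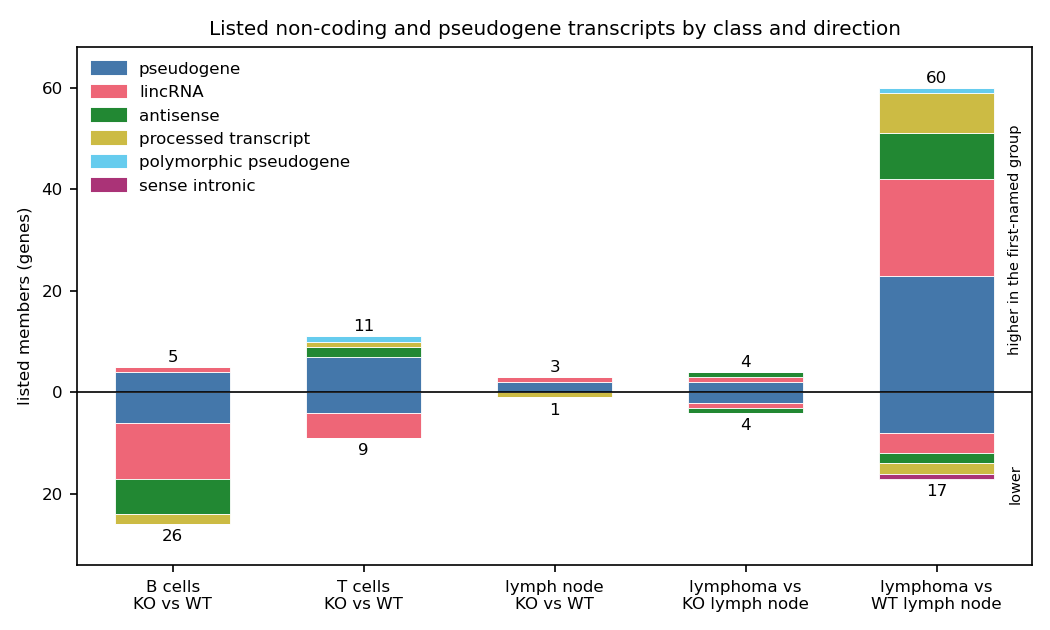
Number of listed non-coding and pseudogene transcripts by comparison, coloured by gene type, with those higher in the first-named group above 0 and those lower below it. B cells had 26 lower and 5 higher, and lymphoma against wild-type lymph node 60 higher and 17 lower.

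By class, all 7 antisense RNAs and 11 of 12 lincRNAs of the B cell comparison were lower in the knockout. Of its 10 pseudogenes 4 were higher (40%), near the 39.6% higher among all listed genes there. In T cells the 5 lincRNAs were all lower. Of the 11 pseudogenes there 7 were higher (63.6%), against 71.2% of all listed genes. Lymphoma against wild-type lymph node had 23 of 31 pseudogenes, 19 of 23 lincRNAs, 9 of 11 antisense RNAs and 8 of 10 processed transcripts higher. Among all listed genes of that comparison 45.2% were higher. Levels were low beside those of other listed genes: the median mean of the higher group was 132 normalised reads in the lymphoma and wild-type lymph node comparison, against 902 for all listed genes there, and 201 against 382 in B cells.

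**Figure D2:**
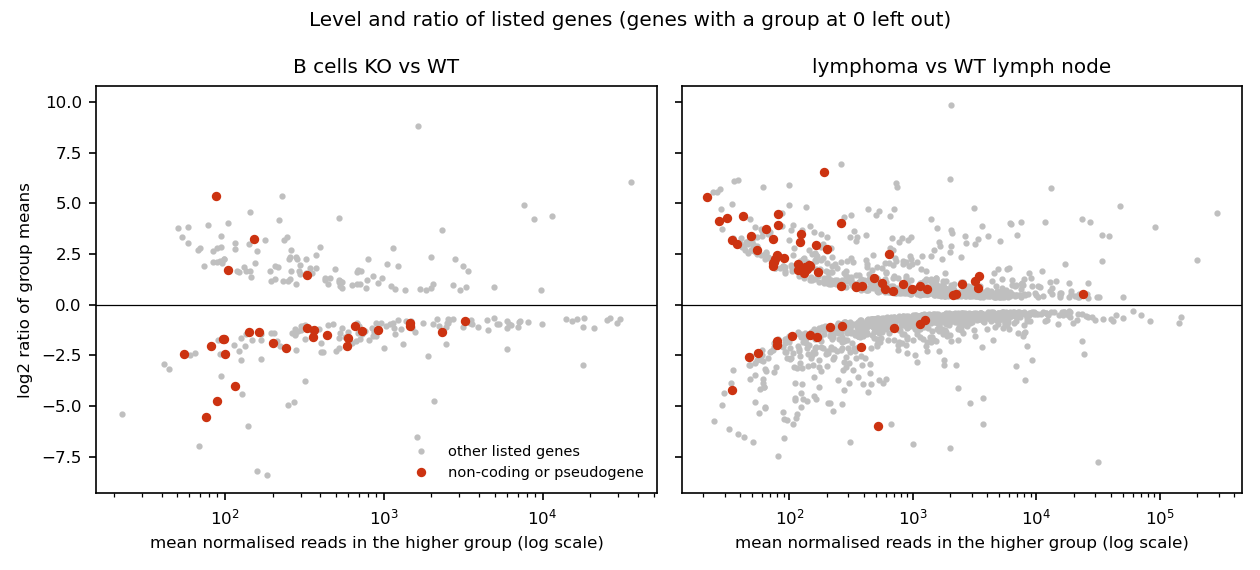
Log2 ratio of group means against the mean normalised reads of the higher group on a log scale, for listed genes of 2 comparisons, with non-coding and pseudogene transcripts in red and all other listed genes in grey (genes with a group at 0 are not drawn). In B cells most red points lie below 0, and in lymphoma against wild-type lymph node most lie above it.

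Of the 106 transcripts, 81 were listed in 1 comparison, 17 in 2, 7 in 3 and 1 in 4. Among the 25 listed more than once, 23 kept 1 direction. The B cell, T cell and lymph node comparisons share no libraries. B and T cells had 4 transcripts in common, 12.9% of the B cell list and 20% of the T cell list, all in the same direction. For protein-coding genes the same 2 comparisons shared 61, which is 28.8% of the B cell and 13.5% of the T cell list, 59 of them in the same direction. B cells and lymph node had 3 of the transcripts in common, and T cells and lymph node 2, again in the same direction each time. The protein-coding genes shared by those pairs were 20, with 19 in the same direction, and 29, with 28 in the same direction.

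Gm13456, the processed copy of the translation elongation factor gene Eef1a1 on chromosome 2, was listed in all 3 comparisons of genotype. In B cells it had 195 and 112 normalised reads in the knockout and 20.9 and 11.7 in wild type. T cell libraries held 149 and 219.9 against 19 and 18.9, and lymph node libraries 355 and 418 against 14.7 and 15.9. Every knockout library was above every wild-type library of its comparison, and groups were likewise apart for every solved listed gene. The log2 ratios were 3.23, 3.28 and 4.66, with an adjusted p of 0.00582 in B cells, 2.12e-06 in T cells and 2.09e-15 in lymph node in the authors' deposited table. Lymphoma libraries, also from knockout mice, held 231 and 288 against 15.2 and 16.5 in the same wild-type nodes, a log2 ratio of 4.04. Gm13456 was not listed between lymphoma and knockout lymph node, and Eef1a1 itself was listed in no comparison.

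Gm6166, the copy of the fatty acid binding protein gene Fabp5 on chromosome 9, was nearly without reads in wild type. In T cells it had 86.9 and 85.7 normalised reads in the knockout and 0 and 0.902 in wild type. That is 180 reads against 1 read, a ratio of 168 with an exact 95% interval of 29.8 to 6685 that covers counting error only. Lymph nodes had 168 and 145 against 0 and 3.98 (log2 ratio 6.29), and lymphomas 226 and 152 against 0 and 4.11 in the same wild-type nodes (log2 ratio 6.52). With 1 library left out, the lowest log2 ratio was 6.58 in T cells, 5.29 in lymph node and 5.52 in lymphoma, and without the wild-type library that held the reads the ratio had no upper limit. Fabp5 ran the other way in lymph node, with a log2 ratio of -1.11, and in lymphoma, with -0.84. 

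The lincRNA 4930597A21Rik (chr11:44586317-44591229) had 93.2 and 83.9 normalised reads in knockout B cells and 0.997 and 3.35 in wild type, a log2 ratio of 5.35 that lay between 4.72 and 6.47 with 1 library left out. Both wild-type lymph node libraries were at 0, against 101 and 47.3 in knockout nodes, so it was at least 46.2-fold higher there, taking 3 reads over the group as the floor. In lymphoma it was at least 53.1-fold higher than in wild-type nodes, at 77.3 and 90.5. The adjusted p in the authors' deposited table was 2.32e-10 in B cells and 0.00144 in lymph node. Gm12663, a pseudogene without a position in GENCODE M21, likewise had 0 reads in wild type in both comparisons that listed it. Its knockout B cell libraries held 21.9 and 28.3, at least 18.4-fold higher, and its lymphoma libraries 15.3 and 29.5, at least 14.2-fold higher.

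Other transcripts were lost or low in the knockout in several comparisons. 3110053B16Rik, a transcribed pseudogene on chromosome 12 that overlaps the zinc finger gene Zfp125 on the same strand, had 3.29 and 3.27 normalised reads in knockout B cells against 79.8 and 99.7 in wild type. T cells had 0.988 and 2.79 against 72.4 and 92. The log2 ratios were -4.77 and -5.44, the latter between -6.38 and -4.88 with 1 library left out, and adjusted p was 4.02e-09 and 2.87e-12 in the authors' deposited table. Lymphomas held 4.77 and 16.6 against 41.1 and 69.9 in wild-type nodes, a log2 ratio of -2.38 that lay between -3.54 and -1.74 with 1 library left out. Zfp125 moved with it: both knockout groups of splenic cells were at 0 in the authors' deposited table, against means of 76.3 in wild-type B cells and 57.1 in wild-type T cells. Because the 2 genes overlap, their reads cannot be fully told apart. 

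Gm26964, a lincRNA on chromosome 11, had no read in either knockout B cell library, against 44.9 and 52.8 normalised reads in the wild-type libraries, at least 30-fold lower. In T cells it had 1 read in the knockout and 63 in wild type, 67.4-fold lower with an exact 95% interval of 11.7 to 2703. 0610039K10Rik, an antisense RNA on chromosome 2 across from Serinc3, a member of a family of membrane proteins, had 1.1 and 2.18 normalised reads in knockout B cells and 81.8 and 71.2 in wild type. That is 3 reads against 167, 46.4-fold lower with an exact interval of 15.6 to 227. Lymphomas were at 0 for it, against 15.2 and 32.9 in wild-type nodes, at least 17.2-fold lower. Serinc3 fell in both comparisons as well, with log2 ratios of -2.98 and -2.41.

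5830428H23Rik was lower in knockout B cells at 179.8 and 201 normalised reads against 582 and 615, a log2 ratio of -1.65. In lymph node it had 588 and 506 against 1098 and 1130.4, a log2 ratio of -1.03, and lymphoma had -0.96 against the same wild-type nodes. It is typed as a processed transcript in the tables, whereas GENCODE M21 calls it Zfp950 and protein-coding, so its place among non-coding RNAs depends on the annotation.

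**Figure D3:**
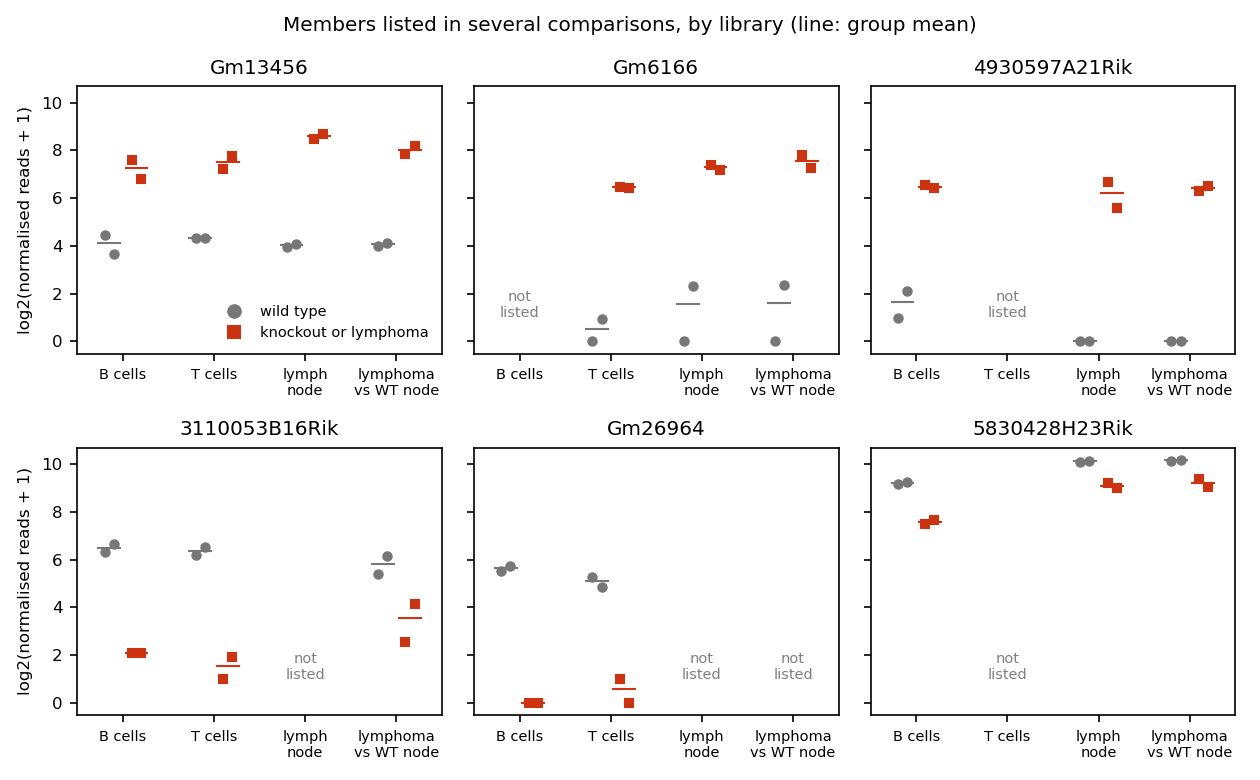
Log2 of normalised reads plus 1 in each recovered library for 6 transcripts listed in 2 to 4 comparisons, with wild-type libraries as grey circles, knockout or lymphoma libraries as red squares, and group means as lines. Lymph node and lymphoma are set against the same wild-type nodes. The knockout libraries lie above wild type for Gm13456, Gm6166 and 4930597A21Rik and below it for the other 3.

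Snhg1, a host gene of small nucleolar RNAs, was lower in both kinds of splenic lymphocyte. Knockout B cells had 1933 and 1785 normalised reads and wild type 2942 and 3559, a log2 ratio of -0.81. In T cells the authors' deposited table gave 2382 as the knockout mean and 3814 as the wild-type mean, a log2 ratio of -0.68, and the reads of the wild-type libraries could not be solved. Snhg6, another host gene, was higher in lymphoma at 389 and 301 against 187 and 185 in wild-type nodes. The adjusted p was 0.00345, 0.00605 and 0.0205 for these 3 differences in the authors' deposited table.

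Of the 31 transcripts in B cells, 26 were lower in the knockout, and several of them belong to loci of known immune genes. Klra13-ps and Klra14-ps are pseudogenes of the Ly49 receptor cluster on chromosome 6, whose coding genes are receptors of natural killer cells for class I molecules. Klra13-ps had 122 and 166 normalised reads in the knockout and 515 and 659 in wild type, a log2 ratio of -2.03, beside -1.18 for Klra7, its nearest relative at 90.9% identity. Klra14-ps had 16.4 and 20.7 against 107 and 94.7, a log2 ratio of -2.44, beside -2.27 for Klra8, its nearest relative at 95.4% identity. All 5 natural killer cell markers examined (Ncr1, Klrb1c, Klra8, Klra4 and Gzma) were lower in the same libraries. Their summed level was 1226 and 1436 in the knockout and 5105 and 4777 in wild type, with none at 0, and its part in the lower Klra pseudogenes was not tested. Of 6 monocyte and macrophage markers only Lyz2 was listed, at 3.29 and 31.6 against 1488 and 1776. In knockout T cells and lymph nodes Lyz2 was lower as well, while Fcgr4, another of these markers, was higher. The part of such cells in B cells was not tested either.

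Another 3 RNAs, named after their values were seen, came from the H60b and Raet1e locus on chromosome 10, which encodes ligands of the receptor NKG2D. Gm26740, an antisense RNA there, had 323 and 270.3 normalised reads in the knockout and 651 and 809 in wild type, a log2 ratio of -1.30. Gm26581 and the pseudogene Hmgb1-ps8 had -1.90 and -1.47. The 3 transcripts overlap H60b and Raet1e, neither of which was listed, and Hmgb1-ps8 also overlaps Gm26740, so that reads may be shared. No knockout library of the 3 was above a wild-type library, and groups were apart for all 286 solved genes in B cells too.

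Gm26532 lies on the plus strand at chr8:84208920-84209609 and begins within the last bases of the hairpin of miR-24-2, the last of a cluster of 3 microRNAs. Its levels were 60.3 and 50.1 normalised reads in the knockout and 244 and 239 in wild type, a log2 ratio of -2.13 with an adjusted p of 3.5e-07 in the authors' deposited table. Mature microRNAs were not measured here. The 3p products of the cluster, from RefSeq on GRCm38.p6 with the seed (bases 2 to 8) in capitals, are shown because they name the locus.
mmu-miR-23a-3p: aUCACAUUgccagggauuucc
mmu-miR-27a-3p: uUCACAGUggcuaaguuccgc
mmu-miR-24-3p: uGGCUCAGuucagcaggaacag
The hairpins of miR-23a and miR-27a end 328 and 162 bases before the start of Gm26532. The 3 seeds differ from each other, and miR-24-3p is also made from a second locus.

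Copies of Noct, the nocturnin gene, a phosphatase with a daily rhythm, were lower together with it. RP23-229N10.1 (chromosome 9) had 988 and 859 normalised reads in knockout B cells and 2317 and 2322 in wild type, a log2 ratio of -1.33. Per kb of exon its means were 1021 and 2566, the highest of the 27 transcripts with a length in that comparison. RP23-20G7.4 (chromosome 1) had 384 and 399 against 922 and 920.0, a log2 ratio of -1.23, and Noct itself had means of 3167 and 6349 in the authors' deposited table. With identities to Noct of 95.2% and 99.7%, reads of the 3 genes may be exchanged. In lymphoma RP23-20G7.4 went the other way, at 607 and 575 against 328 and 368 in wild-type nodes (log2 ratio 0.76), and Noct was not listed there.

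Gm15675, a lincRNA 1836 bases from the complement regulator gene Cd55, fell with it in 2 comparisons. B cells had 911 and 675 normalised reads in the knockout and 1348 and 1587 in wild type, log2 ratios of -0.89 for Gm15675 and -0.86 for Cd55. In lymphoma against wild-type lymph node the ratios were -0.78 and -1.21. 5830416P10Rik, named Mirt1 in GENCODE M21, had 738 and 662 against 1314 and 1621 in B cells, a log2 ratio of -1.07. Kdm6bos, antisense to the histone demethylase gene Kdm6b, had 16.4 and 22.9 against 71.8 and 92.2 (log2 ratio -2.06), and Kdm6b was not listed. Gm14738, a pseudogene without a position here, had 6.58 and 7.63 against 115 and 116, a log2 ratio of -4.02. Gm16152, antisense to the transcription factor gene Aff3, had -2.42. 

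T cells had 11 of the transcripts higher and 9 lower in the knockout. Mx2, a polymorphic pseudogene of the interferon-induced GTPases, had 164 and 197 normalised reads in the knockout and 65.3 and 88.4 in wild type, a log2 ratio of 1.23. Gm16464, a pseudogene within Trim30d with 99.3% identity to the cyclin-like gene Ccnyl1, had 55.3 and 53.1 against 13.1 and 9.92 (log2 ratio 2.24), where Trim30d had 0.67. Nlrp1c-ps, a pseudogene of the Nlrp1 inflammasome family, had 64.2 and 52.2 against 14.2 and 14.4, a log2 ratio of 2.02. F730043M19Rik had 142 and 96 against 28.5 and 42.4, and its log2 ratio was 1.75. These 4 were above wild type in both knockout libraries, and groups were apart for all 510 solved genes in T cells too.

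Gm15918, antisense to Xkr6, a relative of the scramblases, had 25.7 and 13 normalised reads in knockout T cells and 0 in wild type, at least 12.5-fold higher, and Xkr6 had a log2 ratio of 4.27. RP23-458B6.6 (I830127L07Rik in GENCODE M21), a pseudogene of the Ly6 family of lymphocyte surface proteins, had 34.6 and 52.2 against 10.7 and 7.22 in T cells (log2 ratio 2.28). In lymphoma it had 140.4 and 108 against 10.8 and 11.3 (log2 ratio 3.49). Ly6a, the coding gene closest to it, at 85.2% identity, had 1.49 and 1.65 in the same comparisons.

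Among the 9 that were lower in knockout T cells, Bambi-ps1, a processed copy of a gene for an inhibitor of TGF-beta signalling, had 183 and 269 normalised reads against 489 and 563, a log2 ratio of -1.22. The lincRNAs 2610035D17Rik and A430046D13Rik had log2 ratios of -1.06 and -0.94. Gm8221, a pseudogene of the apolipoprotein L genes, had 8.89 and 19.6 against 147 and 91.1 (log2 ratio -3.07, between -3.74 and -2.61 with 1 library left out). Trav8-2, typed here as a pseudogene and in GENCODE M21 as a pseudogene of the T cell receptor, had 17.8 and 0 against 68.9 and 47.8. Its log2 ratio of -2.71 became -1.71 without the knockout library at 0. Trav16, a receptor segment 4266 bases away, had -1.96. Gm26782, on the strand opposite Tep1, had 36.5 and 8.38 against 68.9 and 71.3, a ratio of -1.64 that was -0.94 without the lower knockout library and -3.06 without the higher.

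Markers of T cells and of other cell types moved in the same T cell comparison. Of 6 T cell markers only Cd8b1 was listed, and it was lower in the knockout, with means of 4282 and 7028. Of 6 plasma cell markers, 5 were higher in the knockout, with a summed level of 6409 and 7037 against 2307 and 1533. Monocyte and macrophage markers had 4 of 6 higher and Lyz2 lower, and neutrophil markers 3 of 6 higher, at 151 and 202 against 42.7 and 22.6. No listed marker was at 0, and the part of these cells in the differences was not tested. In lymph node 6 of 6 neutrophil markers were higher in the knockout, at a sum of 1592 and 1774 against 84 and 46.8, with Retnlg at 0 in wild type, and 3 of 4 adipocyte markers were lower, at 312 and 387 against 2884 and 3327. Among 5 B cell markers Cd79a and Pax5 were lower there, at a sum of 14674 and 14761 against 21978 and 23055. Lyz2 was lower in knockout nodes, with means of 299.7 and 30386, and Fcgr4 higher, with 372 and 33.2, in the authors' deposited table. The part of these cells in the 4 transcripts listed there was not tested.

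Lymphoma against wild-type lymph node held a run of 12 of the transcripts on chromosome 1 between 84963669 and 85611896, in a stretch of 648 kb where GENCODE M21 places 28 genes, 6 of them protein-coding. The run was picked out after the values were seen, as the longest series of neighbouring members with gaps under 0.5 Mb. This is the locus of Sp100, Sp110 and Sp140, genes for nuclear body proteins of the interferon response, with many duplicated copies. All 12 were higher in lymphoma. The other 3 listed genes of the stretch, C130026I21Rik, A530032D15Rik and Sp140, were higher as well, with log2 ratios of 2.68, 2.20 and 0.77. Genotype differs in this comparison too, so the run cannot be assigned to lymphoma alone. Of the 12, only A530040E14Rik was listed between lymphoma and knockout nodes, where Sp140 was higher too (log2 ratio 0.91). Between knockout and wild-type nodes none of the 12 was listed.

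RP23-76P9.2 had 103 and 59.1 normalised reads in lymphoma and 2.17 and 5.14 in wild-type nodes, a log2 ratio of 4.47 that lay between 3.98 and 5.23 with 1 library left out. RP23-76P9.1 had 60.2 and 68.3 against 9.74 and 0, a log2 ratio of 3.72 that was 2.72 without the wild-type library at 0. Gm16028 had 75.4 and 72.9 against 10.8 and 5.14, a log2 ratio of 3.22, between 2.78 and 3.85 with 1 library left out. Lymphoma libraries of these 3 were all above the wild-type ones, and groups were apart for all 1629 solved genes of that comparison. Gm15433 had 224 and 178 against 40.1 and 20.6, a log2 ratio of 2.73 with an adjusted p of 1.97e-08 in the authors' deposited table. Gm7609 had 814 and 464 against 116 and 107, a log2 ratio of 2.52. Those of Gm16026, Gm6264, Gm16025, Gm7592, Gm10552 and Gm16094 lay between 1.87 and 2.95.

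A530040E14Rik, an antisense RNA of the run, had 1236 and 1065 normalised reads against 616 and 618, with a log2 ratio of 0.90. It was also higher against knockout nodes, at 1278 and 1098 against 595 and 556 (log2 ratio 1.05), and in knockout T cells, at 173 and 142 against 92.6 and 51.4 (log2 ratio 1.13). Knockout B cells had Gm15433 at 109.6 and 101 against 33.9 and 30.2 in wild type, and Gm7609 at 289 and 373 against 126 and 113. Their log2 ratios in B cells were 1.72 and 1.47, beside 1.02 for C130026I21Rik. Several of the 12 overlap C130026I21Rik, and 5 resemble Sp100, Sp110 or Sp140 at 97.1% to 98.7% identity, in part over short stretches, so single genes of the stretch are uncertain. A530040E14Rik lies 90.8 Mb from Becn2, which is also on chromosome 1, and the listed transcripts nearest to Becn2 are Gm17275 at 4.88 Mb and Gm6345 at 5.66 Mb. In all, 23 of 99 positioned transcripts (23.2%) were on chromosome 1, beside 8.27% of all 2189 positioned listed genes, and without the run 11 remain.

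**Figure D4:**
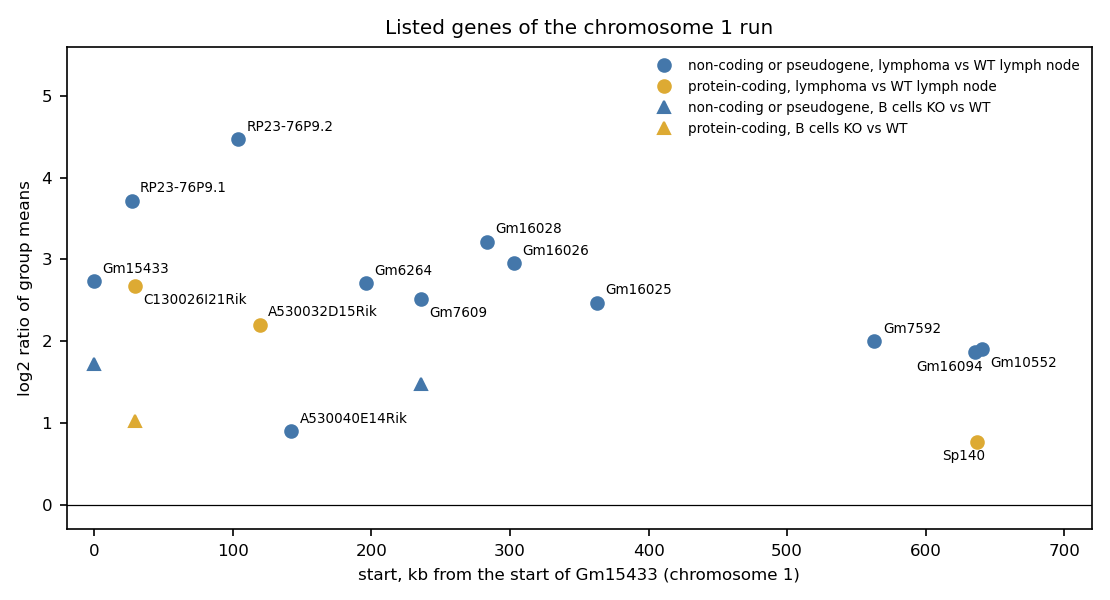
Log2 ratio of group means for listed genes of the chromosome 1 stretch against the distance of their start from that of Gm15433 in kb, with non-coding and pseudogene transcripts in blue and protein-coding genes in yellow, circles for lymphoma against wild-type lymph node and triangles for B cells. All 15 genes of the lymphoma comparison and all 3 of the B cell comparison lie above 0.

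Outside the run, the transcripts with the most reads per kb of exon in lymphoma were Gm26809 and Gm12840, named after their values were seen. Gm26809, a lincRNA on chromosome 6, had 25161 and 22127 normalised reads in lymphoma and 17673 and 15502 in wild-type nodes, a log2 ratio of 0.51. Gm12840 had 3504 and 2888 against 1448 and 1350.3, a log2 ratio of 1.19. Their means per kb were 7932 and 5097 in lymphoma and 5564 and 2231 in wild type. H2-Q5, a polymorphic pseudogene of the class I genes, had 4141 and 2712 against 1306 and 1235, a log2 ratio of 1.43. H2-K2, a class I pseudogene, had 1425 and 1158 against 751 and 772, a log2 ratio of 0.76, and 0.97 against knockout nodes.

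1190002F15Rik, named Lockd in GENCODE M21, is a lincRNA 3579 bases from the cell cycle inhibitor gene Cdkn1b. It had 139 and 138 normalised reads in lymphoma and 24.9 and 57.6 in wild-type nodes. The log2 ratio of 1.75 lay between 1.27 and 2.48 with 1 library left out, and Cdkn1b had 0.66. Gm5535 had 105 and 55.4 against 2.17 and 8.23, a ratio of 3.95 that lay between 3.29 and 5.21. Gm15987, Gm15872 and Pisd-ps1 were named after their values were seen, for a coding gene beside them. Gm15987 and Clec2g across from it had log2 ratios of 1.03 and 1.44. Gm15872 had 67 reads against 3, 19.9-fold higher with an exact 95% interval of 6.52 to 98.8, and Traf3ip3 across from it had a log2 ratio of 0.53. Pisd-ps1 and Sfi1, 846 bases apart, had 0.80 and 0.76.

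Transcripts lower in lymphoma than in wild-type nodes were 17. Gm8221 had 0.955 and 15.7 normalised reads against 414 and 628, a log2 ratio of -5.97 that was -9.09 without the higher lymphoma library. Apol7c, at 97.0% identity to it, had -5.87 in the same comparison. Gm15848, antisense to Fcamr, a receptor for the constant part of IgA and IgM, had 116 and 60.9 against 284 and 470.0 (log2 ratio -2.09), and Fcamr had -1.37. Against knockout nodes Gm15848 had -1.93, and it was lower in knockout B cells too, at 51.5 and 78.5 against 179 and 152. Gm26804 had 33.4 and 79.4 against 156 and 180.0, a ratio of -1.57, between -2.33 and -1.08 with 1 library left out. Gm26782 had 79.2 and 25.9 against 153 and 139 (log2 ratio -1.47), which was -0.88 without the lower lymphoma library and -2.50 without the higher. G530011O06Rik had 28.6 and 11.1 against 67.1 and 90.5, a ratio of -1.99, between -2.83 and -1.46. C230066G23Rik, the 1 sense intronic RNA, within Lrrc8c, had -1.79, and 6430590A07Rik had -1.57.

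Between lymphoma and knockout lymph node, where genotype is shared, 8 of the transcripts were listed. Besides A530040E14Rik, H2-K2 and Gm15848, they were Gm4604, Gm17275, Rps6-ps4, Gm26804 and Olfr1372-ps1. Gm17275, across from the histone gene H3f3a, had 581 and 424 normalised reads in lymphoma and 227 in both knockout node libraries, a log2 ratio of 1.15, and 1.33 against wild-type nodes. In B cells it was lower in the knockout, at 354 and 288 against 626 and 688 (log2 ratio -1.03). Gm26804 had 34.5 and 81.9 against 271 and 179, a ratio of -1.95, between -2.71 and -1.46 with 1 library left out. Olfr1372-ps1, an olfactory receptor pseudogene, had 6.91 and 13.3 against 108 and 60.6, a log2 ratio of -3.06. Groups did not overlap for any of the 8, nor for any of the 416 solved genes of that comparison.

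Other cells differed between the same tissues. All 5 salivary gland markers were higher in lymphoma, with lymphoma means that sum to 307949 beside wild-type nodes and 318091 beside knockout nodes. The node libraries stood apart from each other in this sum, at 20792 and 6491 in wild-type nodes and at 257 and 4920.4 in knockout nodes, and the lymphoma libraries could not all be solved. Plasma cell markers had 5 of 6 higher, at 14682 and 14086 against 5036 and 5227 in wild-type nodes. All 4 endothelial markers were lower, at 6051 and 7349 against 10628 and 10419. The 4 adipocyte markers were lower too, at 23.9 and 190.2 against 3409 and 4149.8, as were 3 of 5 natural killer cell markers, at 206 and 199 against 597 and 714. Of the monocyte and macrophage markers, Lyz2 was lower, with means of 146 and 31371, and Fcgr4 higher, with 353 and 34.3, in the authors' deposited table. The T cell markers were split, with Cd4 higher (log2 ratio 0.42) and Cd8a and Cd8b1 lower (-0.74 and -0.65). Of 3 platelet markers only Itga2b was listed, and it was lower (log2 ratio -1.90). Against knockout nodes 5 of 6 neutrophil markers were lower in lymphoma, at 29.6 and 367 against 1543 and 1576. There 5 of 6 plasma cell markers were higher, at 15178 and 14520 against 8441 and 6857. All 4 endothelial markers were lower than in knockout nodes, at 6255 and 7576 against 13206 and 11989. So were 3 of 4 adipocyte markers, at 20.7 and 177 against 511 and 520, and Csf1r among the monocyte and macrophage markers. No listed marker was at 0, and the part of these cells in the lymphoma differences was not tested.

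Pseudogenes and the coding genes they resemble did not always move together. Among 17 listings in which both were in the same table, leaving out the chromosome 1 run, 11 had the same direction and 6 the opposite one. The 6 opposite listings were of Gm6166 with Fabp5 and of 2 copies of Odc1, the rate-limiting enzyme of polyamine synthesis. Gm17709 had 42.5 and 34.5 normalised reads in knockout T cells and 7.12 and 2.71 in wild type, a log2 ratio of 2.97 that lay between 2.43 and 3.83 with 1 library left out. In lymphoma it had 60.2 and 36.9 against 2.17 and 7.2, a ratio of 3.37 between 2.75 and 4.49. Odc1 was lower in both, at -0.81 and -0.47. Gm7278, the other copy, within Rgl1, had 51 reads in knockout T cells against 2, 23.8-fold higher with an exact 95% interval of 6.27 to 202, and in lymphoma 58 reads against 0, at least 17.2-fold higher. Rgl1, on the same strand, was higher in knockout T cells (log2 ratio 1.38) and lower in lymphoma (-0.68).

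Among copies of ribosomal protein genes, Gm4604 had 138 and 113 normalised reads in lymphoma and 14 and 16.1 in knockout nodes, a log2 ratio of 3.07, and 3.09 against wild-type nodes. Rpl36 had 1.08 and 0.87 in the same comparisons. Rps6-ps4, which is identical to Rps6 over all its 750 bases, was lower in lymphoma at 285 and 382 against 749 and 716 in knockout nodes (log2 ratio -1.14) and at 276 and 370.2 against 658 and 759 in wild-type nodes (-1.13). Rps6 was listed in neither, so its direction is not known from these tables. Of the other ribosomal copies in lymphoma against wild-type nodes, named after their values were seen, Rpl17-ps10 and Rpl23a-ps2 were lower, with log2 ratios of -1.10 and -2.58. Rpl13-ps5 was higher, at 46 reads against 1, a ratio of 40.9 with an exact 95% interval of 6.99 to 1652. Their parents were not listed there.

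**Figure D5:**
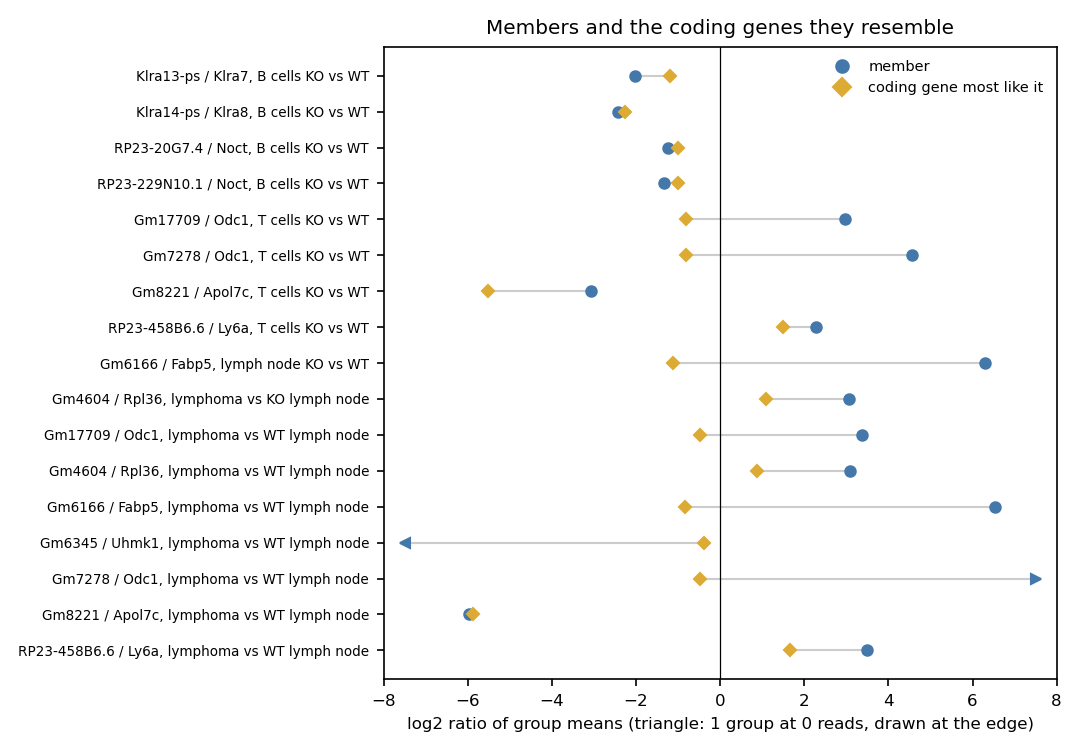
Log2 ratio of group means of pseudogenes and other copies (blue circles) and of the coding gene they resemble (yellow diamonds), 1 line per comparison in which both were listed, with triangles where a group had 0 reads. Gm6166, Gm17709 and Gm7278 lie right of 0 while Fabp5 and Odc1 lie left of it.

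Neighbouring coding genes were listed beside 5 of 27 positioned transcripts in B cells (18.5%), 4 of 19 in T cells (21.1%) and 19 of 74 in lymphoma against wild-type nodes (25.7%), within 10 kb. For listed protein-coding genes the shares were 7.55%, 6.92% and 9.43%. Direction was the same in 5 of 5, 4 of 4 and 18 of 19, the exception being Gm7278 with Rgl1, which had a log2 ratio of -0.68. For listed protein-coding genes with such a neighbour it was the same in 12 of 16, 25 of 31 and 99 of 137. Neither the lymph node nor the lymphoma and knockout node comparison had such a pair. From the chromosome 1 run, the lymphoma count includes RP23-76P9.1, RP23-76P9.2, A530040E14Rik, Gm6264, Gm7609, Gm16028, Gm16026, Gm16094 and Gm10552. Their only such neighbours are C130026I21Rik, A530032D15Rik and Sp140, so they are not separate cases. Gm7609 is in the B cell count too. By the gene types of GENCODE M21, 46 of the 106 transcripts overlap a coding gene. Those 46 leave out 3110053B16Rik and Gm10478, which overlap Zfp125, typed as protein-coding where it was listed. The library protocol in the labels names no step that keeps strand, and the strand setting of the counting is not given in the sources used here, so reads of overlapping and antisense genes cannot be told apart.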

How the data were processed

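The authors' deposited tables give, for each gene listed with values, the signal as 1 mean normalised read count per group, a log2 fold change, a p-value and an adjusted p-value. The B cell list also held 31 gene names without values, which were left out. The deposited log2 fold change was not a number for 25 genes in B cells and 12 in T cells. DESeq, CASAVA 1.8 and the build GRCm38 (mm10) are named in the submitters' processing notes. The aligner, counter and annotation release are not given in the sources used here. Every listed gene has an adjusted p-value under 0.05 in the authors' deposited table, so no test was added. The log2 ratio was recomputed from the deposited means, and the size of each tested gene set was worked out from the Benjamini-Hochberg relation between the deposited p-values.

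Whole reads of the 2 libraries of a group were recovered by writing each mean as a sum of whole reads over 2 size factors. Tested on simulated data, 94.2% to 100% of genes were solved in each group and all solved reads were right. In the deposited means the lowest share was in wild-type T cells, with 512 of 587 genes solved. For knockout B cells and wild-type T cells 2 pairs of size factors were tied or nearly so. Where 2 tables hold 1 group, its reads matched for 22 of 22, 80 of 80 and 326 of 326 genes listed in both. Splenic groups entered 1 comparison each and could not be checked in this way. Reads of Snhg1 in wild-type T cells could not be solved. A fold against 0 reads is a bound that sets the empty group at 3 reads in all, and exact 95% intervals cover counting error only.

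Positions, gene types and overlaps came from GENCODE M21, in which 7 transcripts were absent. Coding relatives were found with BLAST+ 2.17.0 (megablast). Other steps used Python 3.11.15, NumPy 2.4.6, SciPy 1.17.1 and matplotlib 3.10.9. The members, lists and tests were chosen with earlier results of these data known. Named transcripts were, in each comparison, the 8 strongest rises and the 8 strongest falls whose higher group averaged 50 or more, the 4 smallest adjusted p-values per direction, known non-coding RNAs, those in 2 or more tables, and the smallest adjusted p-value of each class. Neighbours and relatives were named where listed in the same table. The H60b locus, the rest of the chromosome 1 run, Gm26809, Gm12840, Gm15987, Gm15872, Pisd-ps1, Gm6345, Rpl17-ps10, Rpl23a-ps2 and Rpl13-ps5 were named after their values were seen.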

Additional observations from a re-analysis of the deposited data

How the results depend on the processing

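No paired analysis was possible because the deposited columns carry no replicate number. The planned count model on single libraries was not run, because the tables hold called genes only. At an adjusted p under 0.01, 5 transcripts remained of 8 in lymphoma against knockout lymph node and 37 of 77 in lymphoma against wild-type lymph node. Leaving out transcripts named Gm and a number gave 15 of 31 in B cells, 11 of 20 in T cells and 2 of 4 in lymph node. In lymphoma it gave 4 of 8 against knockout node and 38 of 77 against wild-type node. Predicted genes with clone names, such as RP23-20G7.4 and RP23-229N10.1, were kept. The next settings were chosen after seeing the data. Without transcripts that overlap a GENCODE M21 coding gene or lack a position, 14 were left in B cells and 13 in T cells. In lymphoma 2 were left against knockout node and 37 against wild-type node. This setting kept 3110053B16Rik and Gm10478, which overlap Zfp125, typed as protein-coding where it was listed. Without near-identical coding copies, 2 of 4 were left in lymph node. A window of 50 kb raised the transcripts with a listed coding neighbour to 8 in B cells and 29 in lymphoma against wild-type node. The other settings of these counts, among them a minimum of 2-fold or of 50 reads, moved none by over 1.5 times.

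Leaving out each library in turn left the counts at 31 in B cells, 19 in T cells (Snhg1 was unsolved), 4 in lymph node, 8 and 77, by direction alone. Of 79 finite named log2 ratios, 22 moved by over 1.5 times and none of 306 values reversed. Direction could not change in this check, because libraries did not overlap between groups for any solved gene. The unchanged counts and the lack of reversals are therefore no test of direction. Another 8 named ratios had a group at 0, as did 6 values once a library was left out, and these were not recomputed. With 2 libraries a group and 1 mean in the tables, precision is limited by the number of libraries, and genes that were not called cannot be described.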
